A study of Mus musculus with 8 samples.

Results

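Mitochondrial ribosomal proteins are the nuclear-encoded proteins of the ribosome that works inside mitochondria. Their genes carry the symbols Mrpl for the large subunit and Mrps for the small subunit, with some exceptions given below. All rows of the deposited count table whose symbol begins with Mrpl or Mrps followed by a digit were taken, which gave 77 of 24469 genes, 48 Mrpl and 29 Mrps. RNA had been sequenced from pancreatic islets picked by hand, the donors being mice of 8 weeks, with 4 wild-type C57BL/6 mice (WT1 to WT4) and 4 mice with the RpL13a snoRNA knockout on that background (KO1 to KO4). The knockout mice have lost the function of U32a, U33, U34 and U35a, a group of box C/D snoRNAs that lie in introns of the cytosolic ribosomal protein gene Rpl13a, and each library came from a mouse of its own. The comparisons were knockout against wild type, and the level of each gene against the share of RNA from acinar cells, the enzyme-secreting cells that surround islets and are carried along in picking.

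The mitochondrial ribosome translates the few messenger RNAs encoded by mitochondrial DNA, all of which specify subunits of the respiratory chain and the ATP synthase. Its proteins are made in the cytosol and imported. Some belong to families shared with bacterial ribosomes, and others are particular to mitochondria. In beta cells, the insulin-secreting cells of the islet, respiration couples glucose to insulin release, so the pathway has a known place in this tissue.

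Assigned counts ranged from 21.2 M to 41.1 M per library (M, 1000000), of which the ribosomal RNA precursor Rn45s took 36.7 to 41.3%. Insulin and the other islet hormones took 10.2 to 24.3% of counts in wild-type and 9.02 to 16.7% in knockout libraries. Counts on the 4 targeted snoRNAs were few, 15 in wild type in all and 0 in each knockout library. The 15 were 9 on Snord32a and 6 on Snord33. Snord34 and Snord35a had 0 counts in every library of both genotypes, so these counts cannot show their loss. Genes of an acinar list, 45 of whose 47 symbols were in the table, took 29.6, 2.27, 15.9 and 5.44% of counts in WT1 to WT4 and 24.6, 5.97, 31.2 and 19.7% in KO1 to KO4. KO2 also stood apart by a list of 7 hepatocyte genes, which took 0.593% of its counts and at most 0.00107% in any wild-type library. Fewer cells of a type and less RNA per cell cannot be told apart in such bulk samples.

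The mitochondrial ribosomal protein genes were lowly to moderately expressed. The 77 genes together had 7779 to 15466 counts per library, and a single gene had 22 to 605 counts in a library with a median of 143, against 180 over the 13617 genes that passed the filter on low counts. All 77 passed that filter. As counts per 100000 assigned, they made up 37.3, 52.4, 45.4 and 53.1 in WT1 to WT4 and 36.6, 64.8, 35.2 and 54.1 in KO1 to KO4. The libraries richest in acinar RNA had the lowest of these shares, in both genotypes. Acinar counts are part of the total here, so more acinar RNA lowers these shares without any change in the 77 genes. Among counts left after the acinar and hormone genes, Rn45s and Lars2 were taken out, the 77 genes made up 0.189% ± 0.0196 in wild type and 0.202% ± 0.00803 in knockout (SD, n = 4 each). By library these were 0.213, 0.166, 0.194 and 0.182% in WT1 to WT4 and 0.197, 0.193, 0.207 and 0.210% in KO1 to KO4. On this measure WT1, richest in acinar RNA, was the highest wild-type library and WT2, poorest in it, the lowest. Among knockout libraries KO4 was highest and KO2, poorest in acinar RNA, lowest. The 2 genotypes overlapped in all of these shares.

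Levels between genes were compared as CPM per kilobase, where the length is that of the longest annotated transcript. CPM is counts per 1000000 of the library size scaled by TMM, a normalization that assumes that most genes do not differ between libraries. Mrps21, a small-subunit protein of a bacterial family, stood at 28.8 ± 3.87 CPM per kilobase in wild type and 29.2 ± 2.89 in knockout (SD, n = 4 each). Mrpl33, a large-subunit protein of a bacterial family, stood at 26.5 ± 3.60 and 30.7 ± 4.44. These levels lay within the spread of each other. Mrpl42, a large-subunit protein particular to mitochondria, came next at 12.2 ± 3.27 and 13.7 ± 1.59. With the median transcript length in place of the longest, Mrps21 and Mrpl33 still led, Mrpl17 came next at 22.6 over the 8 libraries, and Mrpl42 ranked 9. With the longest transcript Mrpl17 stood at 2.30 and ranked 52, so the place of some genes depended on the length used.

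The lowest levels per kilobase belonged to Mrpl32, whose protein is cut to its mature form by a mitochondrial protease in yeast and mice before it joins the large subunit, to Mrpl47 and to Mrps26. Mrpl32 stood at 0.621 ± 0.144 in wild type and 0.620 ± 0.165 in knockout, and Mrpl47 at 0.555 ± 0.156 and 0.742 ± 0.117. Mrps26 followed at 0.719 ± 0.143 and 0.854 ± 0.0371 (CPM per kilobase, SD, n = 4 each). The 3 genes lay within or close to each other's spread, and they were also the lowest with the median transcript length. With the longest transcript, the median over the 77 genes was 3.51 CPM per kilobase, with 3.75 for Mrpl and 3.22 for Mrps by symbol.

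Promoters of these genes are shown because the factors NRF1 and those of the ETS family are known to bind promoters of many nuclear genes for mitochondrial proteins. RefSeq promoters on GRCm38.p6 were found for 68 of the 77 genes, in 74 windows, and the 250 bases before each start were searched on both strands. The NRF1 motif, GCGCA and GCGC with any single base between them, was found in 10 windows, or 13.5%, against 3.74% of all 32851 promoter windows and 7.63% of the 13310 windows of genes that passed the filter. The motif CCGGAAG, bound by ETS factors, was found in 17, or 22.97%, against 6.91 and 12.5%. The motif AANATGGCG of YY1 was found in 2 (2.70% against 1.12 and 2.0%). The GC box GGGCGG was found in 37 of the 74 windows, against 32.7 and 56.4%. The E-box CACGTG was found in 7 (9.46% against 6.02 and 8.14%). These shares are descriptions without a test, and a match is not a bound site. The stretches below end at the base before the annotated start and run 5′ to 3′ on the gene's strand, with NRF1 motifs in capitals in Mrpl12, Mrpl45 and Mrpl9 and ETS motifs in capitals in Mrpl52, Mrps18a and Mrps27.
Mrpl12, chr11:120484497-120484636, plus strand: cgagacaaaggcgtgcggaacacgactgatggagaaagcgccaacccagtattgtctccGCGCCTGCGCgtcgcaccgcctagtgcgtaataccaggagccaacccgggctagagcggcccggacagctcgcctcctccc
Mrpl45, chr11:97315576-97315715, plus strand: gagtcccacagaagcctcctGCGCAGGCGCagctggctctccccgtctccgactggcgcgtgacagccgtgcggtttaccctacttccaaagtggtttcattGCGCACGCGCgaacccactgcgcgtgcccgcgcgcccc
Mrpl9, chr3:94443196-94443335, plus strand: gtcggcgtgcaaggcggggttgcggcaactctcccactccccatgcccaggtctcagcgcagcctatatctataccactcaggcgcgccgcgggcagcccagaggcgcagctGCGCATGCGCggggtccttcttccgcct
Mrpl52, chr14:54426769-54426908, plus strand: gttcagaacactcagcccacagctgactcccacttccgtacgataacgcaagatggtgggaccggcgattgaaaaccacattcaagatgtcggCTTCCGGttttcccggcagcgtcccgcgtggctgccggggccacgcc
Mrps18a, chr17:46110864-46111003, plus strand: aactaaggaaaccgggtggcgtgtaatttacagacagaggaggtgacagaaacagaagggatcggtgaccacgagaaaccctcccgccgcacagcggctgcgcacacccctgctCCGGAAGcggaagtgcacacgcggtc
Mrps27, chr13:99344706-99344785, plus strand: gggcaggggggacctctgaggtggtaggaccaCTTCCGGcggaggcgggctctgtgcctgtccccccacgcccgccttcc

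Between genotypes, no mitochondrial ribosomal protein gene passed the test, while more than 3 in 4 of the estimates were higher in knockout islets. In edgeR's quasi-likelihood test with Benjamini-Hochberg adjustment at 0.05, 0 of 77 genes were called, beside 0.0147% of all genes kept, and the smallest adjusted p among the 77 was 0.116. The estimate was above 0 for 59 genes and below 0 for 18, so 76.6% were above 0 beside 51.3% of all genes. Genes of the cytosolic ribosomal proteins leaned the same way, with 68 of 82 above 0 (82.9%) and 14 below. Their median log2 difference was 0.24, with 0 calls, so the lean was not particular to the mitochondrial set. Over the 77 genes the median log2 difference, knockout minus wild type, was 0.15, while the median of all genes was 0.0098. The quartiles of the 77 were 0.0047 and 0.29, and the range was from -0.61 to 0.66. At an unadjusted p under 0.05, 10 genes were higher and 2 lower. Together these were 15.6% of the 77 beside 18.7% of all genes kept, with 8.42% of all genes higher and 10.3% lower.

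Summed over the 77 genes, the level was 501, 392, 462 and 433 CPM in WT1 to WT4 and 458, 492, 503 and 487 in KO1 to KO4. WT2 and WT4 lay below all knockout libraries, WT1 lay among them, and KO1 lay below WT3, so the groups overlapped. The Mrpl sum was 289 ± 32.1 CPM in wild type and 316 ± 13.6 in knockout, and the Mrps sum was 158 ± 14.1 and 169 ± 5.92 (SD, n = 4 each). The ratio of the Mrpl to the Mrps sum was 1.83 ± 0.0551 in wild type and 1.87 ± 0.0238 in knockout. These sums go by symbol and not by subunit. The Mrps sum thus holds Mrps18a, Mrps30 and Mrps36, which are not small-subunit proteins. WT1 was the highest wild-type library for 47 of the 77 genes and WT2 the lowest for 44. Among knockout libraries, KO3 was highest for 30 and KO1 lowest for 36. WT1 held the most acinar RNA of the wild-type libraries and WT2 the least, which bears on the acinar comparison below.

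**Figure D1:**
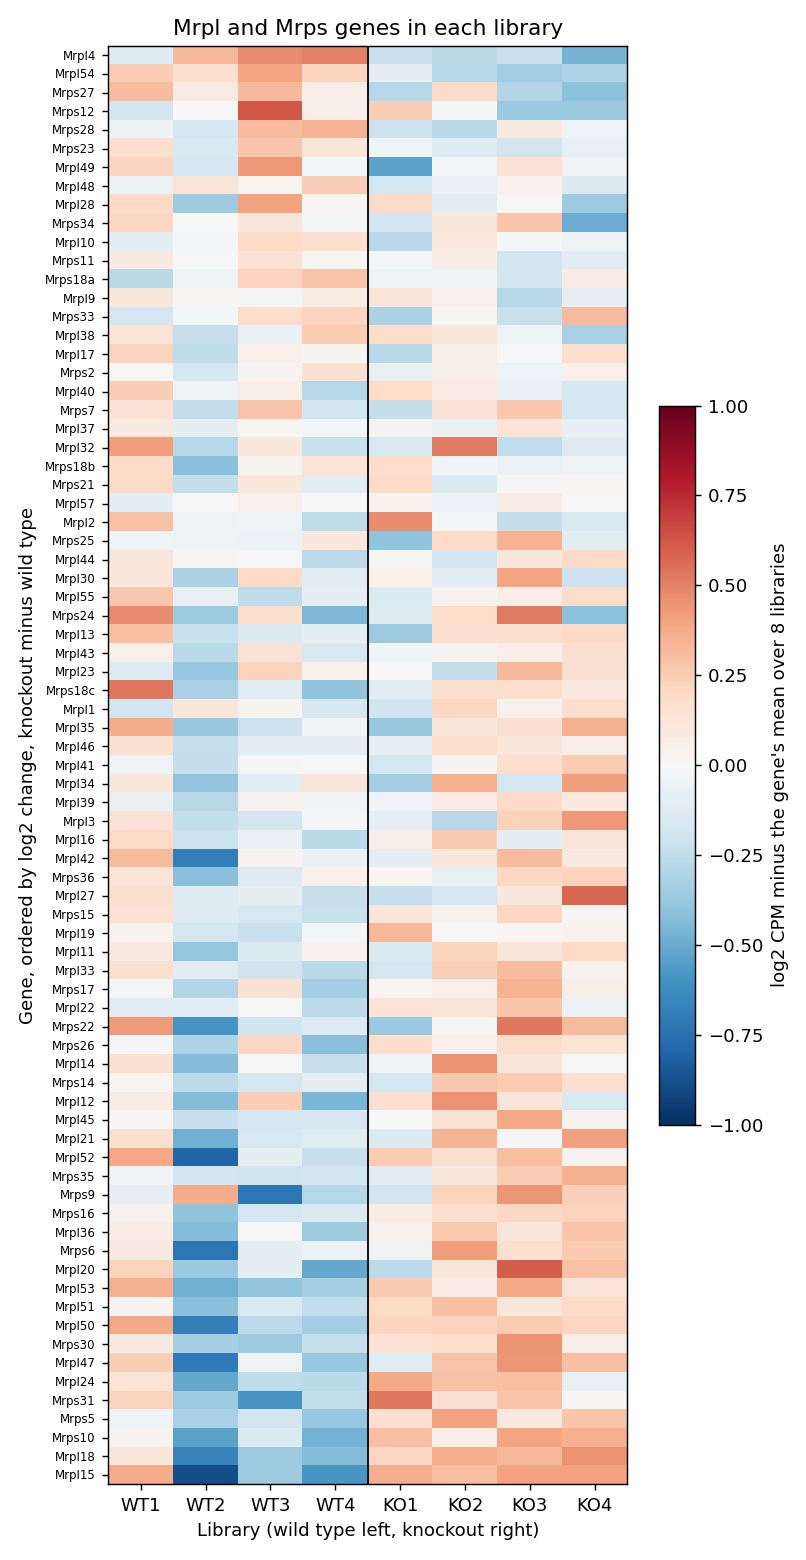
Level of each of the 77 genes in each library, as log2 CPM minus the gene's mean over the 8 libraries (colour, from -1 to 1), with 1 row per gene ordered by the log2 difference between genotypes and 1 column per library. WT2 is mostly below the mean and WT1 mostly above it, WT1 being the highest wild-type library for 47 genes and WT2 the lowest for 44.

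The estimates were also counted by subunit and origin, with no test between the groups. Of 31 large-subunit genes of bacterial families, 25 were above 0 with a median of 0.17, and of 19 large-subunit genes particular to mitochondria, 15 were above 0 with a median of 0.13. Of 17 small-subunit genes of bacterial families, 13 were above 0 with a median of 0.12, and of 9 small-subunit genes particular to mitochondria, 5 were above 0 with a median of 0.047 (log2 differences throughout). In these counts Mrps18a and Mrps30 stand with the large subunit, where their proteins sit. Mrps36, which is now known as a part of the 2-oxoglutarate dehydrogenase complex, stands with neither, and its log2 difference was 0.18 ± 0.14 (SE, edgeR adjusted p = 0.514).

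The 4 knockout libraries lay wholly above the 4 wild-type libraries for 5 genes and wholly below for 2, of 77, beside 3.68% and 4.66% of all genes kept. Taken over both directions, the share of the 77 genes was near that of all genes. Of the large-subunit genes, Mrpl18 encodes a protein of the family that binds 5S ribosomal RNA in other ribosomes. Its level was 5.61, 3.25, 4.01 and 3.81 CPM in WT1 to WT4 and 5.94, 6.62, 6.49 and 7.04 in KO1 to KO4. WT1 lay nearest to the knockout libraries, and the groups did not overlap. The log2 difference was 0.65 ± 0.17 (SE), with a 95% interval from 0.28 to 1.02 and an edgeR adjusted p of 0.144.

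Mrpl51, a large-subunit protein particular to mitochondria, was at 5.90, 4.34, 5.22 and 4.90 CPM in WT1 to WT4 and 6.65, 7.14, 6.27 and 6.62 in KO1 to KO4. All knockout libraries were above all wild-type ones, by little in the case of KO3 over WT1. The log2 difference was 0.39 ± 0.13 (SE, edgeR adjusted p = 0.176).

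Mrpl54 and Mrpl4 were the 2 genes with all knockout libraries below. Mrpl54, a large-subunit protein particular to mitochondria, was at 8.61, 8.10, 9.47 and 8.35 CPM in WT1 to WT4 and at 6.76, 5.90, 5.70 and 5.82 in KO1 to KO4. The replicates of each genotype lay close together with a gap between them. With means of 8.63 ± 0.596 and 6.04 ± 0.487 CPM (SD, n = 4 each), the log2 difference was -0.52 ± 0.11 (SE), with a 95% interval from -0.76 to -0.27 and the smallest adjusted p of the 77 genes, 0.116 in edgeR. Mrpl4, whose bacterial relative lines the tunnel through which the new protein leaves, was at 4.34, 5.99, 6.60 and 6.72 CPM in WT1 to WT4 and 4.06, 3.95, 4.06 and 3.44 in KO1 to KO4. WT1 was the lowest wild-type library and lay close above KO1 and KO3. The log2 difference was -0.61 ± 0.16 (SE, 95% interval -0.96 to -0.26, edgeR adjusted p = 0.144).

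Of the small-subunit genes, Mrps5 encodes the mitochondrial member of a family that in bacteria bears on how accurately codons are read. It was at 6.23, 5.12, 5.63 and 4.93 CPM in WT1 to WT4 and 7.12, 8.44, 6.85 and 7.74 in KO1 to KO4. KO2 was highest, WT4 lowest, and the groups did not overlap. The log2 difference was 0.46 ± 0.13 (SE, 95% interval 0.19 to 0.74, edgeR adjusted p = 0.145).

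Mrps10 and Mrps16, both small-subunit proteins of bacterial families, were also higher in every knockout library. Mrps10 was at 3.55, 2.41, 3.18 and 2.52 CPM in WT1 to WT4 and 4.29, 3.65, 4.59 and 4.47 in KO1 to KO4, a log2 difference of 0.54 ± 0.17 (SE, edgeR adjusted p = 0.166). Mrps16, named after its values were seen, was at 4.27, 3.13, 3.66 and 3.75 in WT1 to WT4 and 4.35, 4.66, 4.77 and 4.85 in KO1 to KO4, with 0.33 ± 0.14 (SE, edgeR adjusted p = 0.239). In both genes WT1 and the lowest knockout library lay close together.

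**Figure D2:**
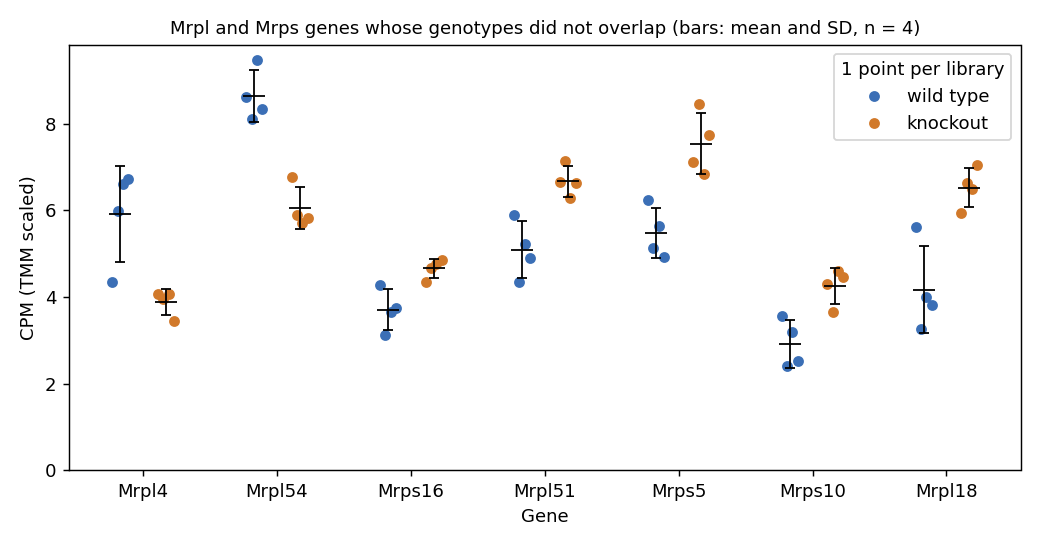
CPM of the 7 genes whose genotypes did not overlap, with 1 point per library, wild type in blue and knockout in orange, and bars for the mean and SD (n = 4). Knockout lies above wild type in Mrpl18, Mrpl51, Mrps5, Mrps10 and Mrps16 and below in Mrpl4 and Mrpl54, with no adjusted p in edgeR under 0.116.

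Mrpl15, a large-subunit protein of a bacterial family, had the highest positive estimate, with a log2 difference of 0.66 ± 0.23 (SE, 95% interval 0.15 to 1.16, edgeR adjusted p = 0.192). Its level was 6.39, 2.68, 3.84 and 3.31 CPM in WT1 to WT4 and 6.35, 6.10, 6.54 and 6.52 in KO1 to KO4. WT1 lay among the knockout libraries and the other 3 wild-type libraries far below, so the groups overlapped through WT1.

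The remaining genes of the lower side were nearer to 0. Mrps23 had a log2 difference of -0.22 ± 0.12, Mrps27, a pentatricopeptide repeat protein of the small subunit, -0.37 ± 0.20, and Mrpl48 -0.17 ± 0.11 (SE, edgeR adjusted p of 0.327, 0.330 and 0.382). Their groups overlapped. Of the 3 paralogs of a single small-subunit family, Mrps18a stood at 5.03 ± 0.872 CPM in wild type and 4.65 ± 0.328 in knockout, Mrps18b at 8.89 ± 1.57 and 8.96 ± 0.696, and Mrps18c at 4.90 ± 1.58 and 5.30 ± 0.448 (SD, n = 4 each). Their log2 differences were -0.11 ± 0.15, 0.01 ± 0.14 and 0.12 ± 0.20 (SE), and the edgeR adjusted p was 0.705 or above for each.

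A null call leaves a range of sizes. The median SE of a log2 difference was 0.159 over the 77 genes and 0.167 over all genes kept, and the 95% interval lay within 1 log2 unit of 0 on both sides for 75 of 77 genes. The other 2 were Mrpl15 and Mrpl18, whose intervals reached 1.16 and 1.02. On simulated counts of these libraries, the genotype test recovered 67% of 2-fold and 12% of 1.5-fold changes. Those counts held 100 planted changes of each size, in genes above a count floor, and gave 81 calls. The real test called 2 genes in all, and the adjustment is stricter when fewer genes are called. Recovery in the real test was thus not measured and may be lower. The spread between replicates of a gene had a median coefficient of variation of 15.6% in wild type and 11.7% in knockout, beside 16.0 and 14.4% over all genes.

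**Figure D3:**
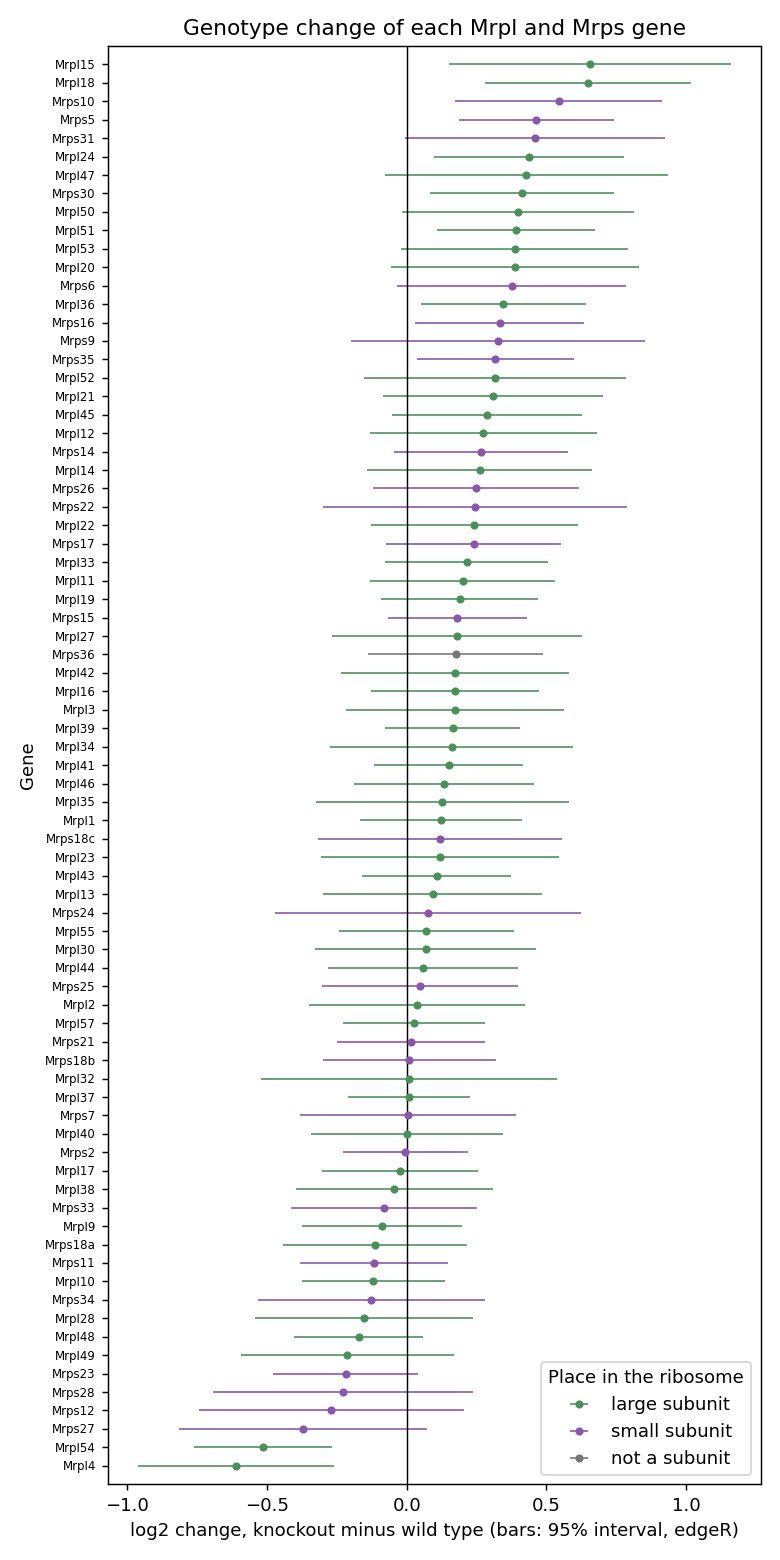
Log2 difference between genotypes for each of the 77 genes, knockout minus wild type, as points with 95% intervals from edgeR, coloured by place in the ribosome (large subunit, small subunit, or not a subunit) and ordered by size. Points lie above 0 for 59 genes and below for 18, and none passed an adjusted p of 0.05.

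How many genes were called depended on the tool and on WT1. DESeq2 called Mrpl18 and Mrps5 higher in knockout (adjusted p of 0.0282 and 0.0433) and Mrpl54 and Mrpl4 lower (0.00914 and 0.0358), beside 1.48% of all genes called higher and 2.31% called lower. Without WT1, edgeR called 8 higher, which were Mrpl15, Mrpl18, Mrpl24, Mrpl50, Mrpl51, Mrpl53, Mrps10 and Mrps5, and the 2 lower genes Mrpl4 and Mrpl54, beside 3.39% of all genes called higher and 6.08% called lower. Without KO2, the library with hepatocyte RNA, 0 of 77 were called and the median log2 difference was 0.133. In limma-trend on the authors' RPM values, 0 were called, the median was 0.0108 and 42 of 77 estimates were above 0, where the median of all genes was -0.0881.

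The acinar comparison asked how the same genes moved with acinar RNA at a given genotype, fitted in edgeR as the log2 change per 10 percentage points of the acinar share with genotype in the design. None of the 77 genes passed, and most estimates were small and positive. At an adjusted p of 0.05, 0 of 77 were called, beside 3.11% of all genes kept (3.0% positive and 0.11% negative), and the smallest adjusted p was 0.144. The estimate was above 0 for 63 of 77 genes, 81.8% beside 44.8% of all genes, in edgeR on the TMM scale, while in limma-trend on log2 of the authors' RPM plus 1 it was above 0 for 0 of 77. The median was 0.066 per 10 points on the TMM scale, with a range from -0.10 to 0.26, and the median of all genes was -0.014. In limma-trend on RPM the medians were -0.140 and -0.192. The median of the 77 was thus 0.0796 above that of all genes in edgeR and 0.0512 above it in limma-trend, fits that differ in tool, added constant and scaling together. At an unadjusted p under 0.05, 11 genes had a positive slope and 0 a negative one, 14.3% beside 12.9% of all genes in either direction, with 7.79% positive and 5.12% negative. DESeq2 called 0 of 77, beside 4.12% of all genes. On RPM, limma-trend called 31 of 77 lower, beside 62.2% of all genes called lower.

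The cytosolic ribosomal proteins, which build the ribosome of the cytosol, gave a reference on the same libraries. Of 82 such genes, 60 rose with the acinar share in edgeR, and the median slope was 0.25 on the TMM scale, while in limma-trend on RPM 3 rose, 1 fell and the median was -0.00889. Leaving out WT1 left 16 genes called and leaving out KO3 left 38, the 4 knockout libraries alone gave 2 and a fit with the replicate number as a block gave 0, with medians of 0.222, 0.240, 0.226 and 0.310. The median was 0.265 above that of all genes in edgeR and 0.183 above it in limma-trend. Their summed level was 8052, 4636, 5967 and 4834 CPM in WT1 to WT4 and 7034, 5641, 8738 and 6512 in KO1 to KO4. The 8 libraries had the same order by this level as by the acinar share, with KO3 and WT1 highest and WT2 lowest. Highest over lowest library was 1.88-fold for the cytosolic sum, 1.28-fold for the sum over the 77 mitochondrial genes and 13.7-fold for the acinar share. The cytosolic sum was thus 16.1, 11.8, 12.9 and 11.2 times the mitochondrial one in WT1 to WT4 and 15.4, 11.5, 17.4 and 13.4 times in KO1 to KO4. Whether the slopes of the 2 sets differ was not tested.

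**Figure D4:**
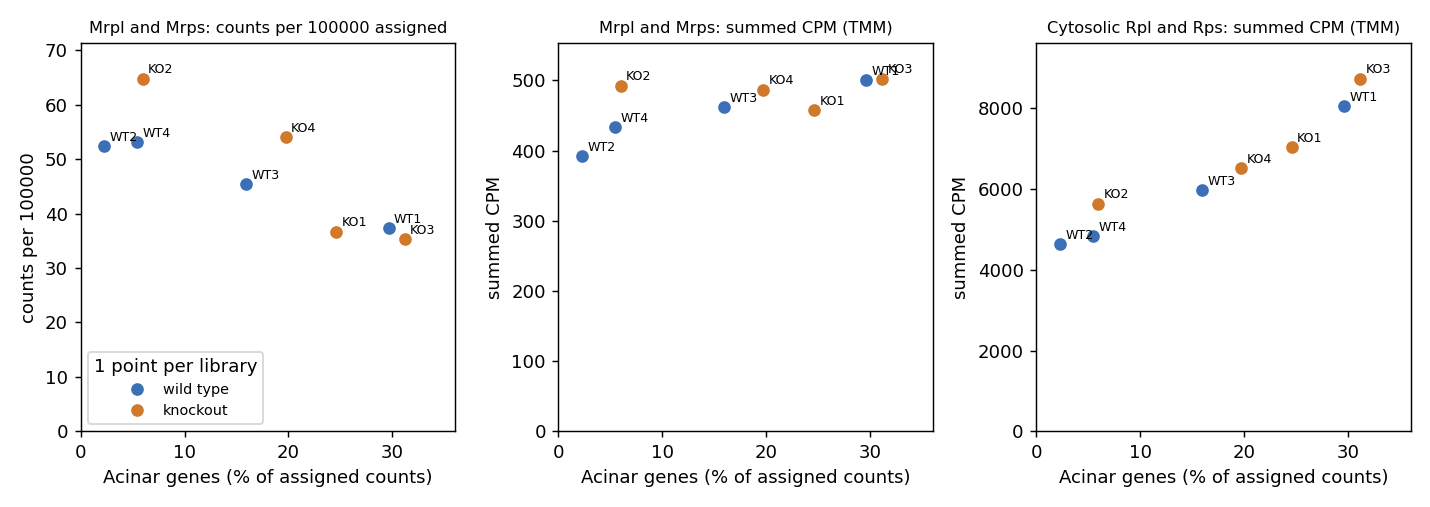
Left, counts on the 77 genes per 100000 assigned counts. Middle, their summed CPM on the TMM scale. Right, the summed CPM of 82 cytosolic ribosomal protein genes. Each is plotted against the acinar share of assigned counts in percent, with 1 point per library and both axes from 0. Without scaling, the share of the 77 genes is lowest in the libraries with most acinar RNA (35.2 per 100000 in KO3). Acinar counts are part of the total of that share. On the TMM scale the sum of the 77 genes spans 392 to 503 CPM and the cytosolic sum 4636 to 8738.

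Among the steepest genes, Mrpl53, a large-subunit protein particular to mitochondria, was at 7.79, 4.37, 4.63 and 4.82 CPM in WT1 to WT4 and 7.29, 6.42, 7.91 and 6.65 in KO1 to KO4. In each genotype the library with most acinar RNA, WT1 and KO3, was the highest. Its slope was 0.21 ± 0.07 log2 per 10 points (SE, edgeR adjusted p = 0.144). Mrpl15 had 0.26 ± 0.08 (edgeR adjusted p = 0.154), with the levels given above, of which WT1 alone stood out.

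Mrpl50, also particular to mitochondria, was at 15.6, 7.47, 10.02 and 9.47 CPM in WT1 to WT4 and 13.9, 14.1, 14.3 and 13.8 in KO1 to KO4. The wild-type libraries ranked with WT1 highest and WT2 lowest, and the knockout libraries were almost level. The slope was 0.20 ± 0.07 (SE, edgeR adjusted p = 0.215). Mrpl52 had 0.22 ± 0.08 and Mrpl20 0.20 ± 0.08, with edgeR adjusted p of 0.249 and 0.300. In limma-trend on RPM these 5 slopes were below 0, as were those of the other 72 genes, where the median of all genes was -0.192.

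The 5 genes with the smallest p among negative slopes were Mrps33 at -0.10 ± 0.07, Mrpl1 at -0.08 ± 0.06, Mrpl4 at -0.10 ± 0.08, Mrps18a at -0.09 ± 0.08 and Mrpl10 at -0.06 ± 0.06 (log2 per 10 points ± SE), and the edgeR adjusted p was 0.606 or above for each. Mrpl1 belongs to the family that forms the mobile L1 stalk of the large subunit, and Mrpl10 to the family that anchors the other stalk. Mrps18c had a slope of 0.18 ± 0.08 (SE, edgeR adjusted p = 0.378), so the estimates of the 3 paralogs lay on both sides of 0, with Mrps18b at 0.09 ± 0.07.

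**Figure D5:**
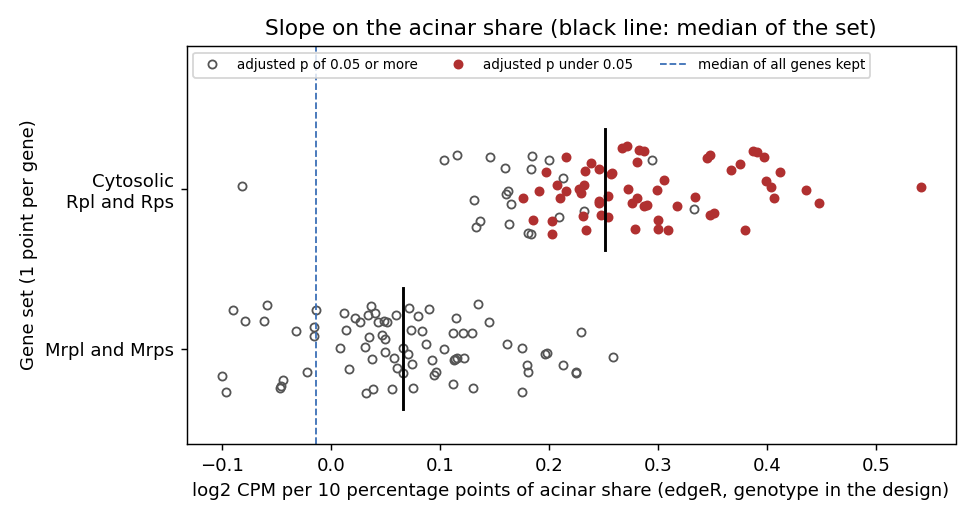
Slope on the acinar share for each gene, in log2 CPM on the TMM scale per 10 percentage points with genotype in the design, for the 77 mitochondrial and 82 cytosolic ribosomal protein genes. Filled points passed an adjusted p of 0.05 in edgeR, black lines are the medians of the sets (0.066 and 0.25) and the dashed line is the median of all genes (-0.014). In limma-trend on the authors' RPM the medians of the sets are -0.140 and -0.00889 and that of all genes -0.192.

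The slopes were also fitted within each genotype. On the 4 wild-type libraries alone, the median slope was 0.121, 66 of 77 estimates were above 0, and Mrpl15 and Mrpl50 were called higher by edgeR (adjusted p of 0.0329 and 0.0318), beside 3.2% of all genes called higher. On the 4 knockout libraries alone the median was 0.0038, 41 of 77 estimates were above 0 and 0 were called, beside 1.46% of all genes. In the test of the difference between those slopes, 0 of 77 genes passed in edgeR, the smallest adjusted p was 0.253, and 10 of 77 had an unadjusted p under 0.05, beside 10% of all genes. The median difference of slopes, knockout minus wild type, was -0.115 over the 77 genes and 0.0014 over all genes. Without WT1, the wild-type library with most acinar RNA, the median slope over all libraries was 0.0296 and 0 of 77 genes were called, beside 1.55% of all genes.

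Leaving out a single library made other calls. Without KO2, edgeR called Mrpl15, Mrpl50 and Mrps24 higher with the acinar share, beside 3.84% of all genes called higher, and without KO1 it called Mrpl20, beside 2.83%. When the acinar share was added as a covariate, the comparison of genotypes had a median log2 difference of 0.101, 51 of 77 estimates above 0 and 0 calls. For the cytosolic ribosomal protein genes that fit gave a median of 0.081, 57 of 82 estimates above 0 and 0 calls. The mean acinar share was 13.3% ± 12.3 in wild type and 20.4% ± 10.7 in knockout (SD, n = 4 each), and its part in the genotype estimates beyond that covariate was not tested.

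Proteins that serve the same ribosome under other symbols were counted as well. Of 6 such ribosomal proteins in the table, 3 had a genotype estimate above 0, with a median log2 difference of 0.031 and 0 calls. Chchd1, a small-subunit protein, rose with the acinar share by 0.37 log2 per 10 points (edgeR adjusted p = 0.00805). It was at 8.45, 3.46, 4.46 and 3.78 CPM in WT1 to WT4 and 8.06, 5.41, 8.17 and 7.36 in KO1 to KO4, highest within each genotype where acinar RNA was highest. The slope no longer passed without WT1 (0.25, edgeR adjusted p = 0.252), in the knockout libraries alone (0.25, adjusted p = 0.489), with the replicate number as a block (0.46, adjusted p = 0.665) or in limma-trend on RPM (0.08, adjusted p = 0.272). Its genotype difference was 0.52 ± 0.28 (SE, edgeR adjusted p = 0.327). Ptcd3, a pentatricopeptide repeat protein of the small subunit, had a genotype difference of 0.27 ± 0.12 (SE, edgeR adjusted p = 0.259).

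Of 25 assembly factors, 16 had a genotype estimate above 0, with a median of 0.083 and 0 calls. Dhx30, an RNA helicase of mitochondrial RNA granules, was at 15.6, 15.02, 14.03 and 16.4 CPM in WT1 to WT4 and 12.4, 11.7, 13.1 and 13.4 in KO1 to KO4, so all knockout libraries lay below. In this list the groups did not overlap for 4 of the 25, 2 with knockout above (Ddx28 and Gtpbp10) and 2 with knockout below (Dhx30 and Trmt2b), beside 3.68% and 4.66% of all genes kept. For Dhx30 the log2 difference was -0.27 ± 0.10 (SE, edgeR adjusted p = 0.195). Mterf3, needed for ribosome assembly in mice, had 0.38 ± 0.15 (SE, edgeR adjusted p = 0.216). Of 18 translation and mitochondrial RNA factors, 14 had an estimate above 0, with a median of 0.14 and 0 calls. The 2 of smallest p were the initiation factor Mtif3 at -0.27 ± 0.13 and Slirp, a messenger RNA binding protein, at 0.35 ± 0.17 (SE, edgeR adjusted p of 0.269 and 0.278).

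The genes lie on 17 chromosomes, with 10 on chromosome 11. On chromosome 7, which carries Rpl13a, there are 6, and the nearest in gene order, Mrpl46, lies 112 tested genes away. Its log2 difference was 0.13 (edgeR adjusted p = 0.636).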

How the data were processed

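RNA from hand-picked islets was made into SeqPlex libraries, per the labels' protocols. STAR 2.4.1, Partek and the mouse build mm9 are named in the submitters' processing notes; the sources used here give neither the gene annotation nor poly(A) selection nor strand. The authors deposited estimated counts per gene, of which 9.98 to 12.4% per library were not whole within 0.01, and these were rounded. They also deposited RPM values, which equal the count over 1 constant per library plus 0.0001, with constants of 37.3 M to 67.5 M reads. Columns were matched to samples by title.

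The count test was that of edgeR 4.0.16, run in R 4.3.3 (with TMM, filterByExpr by genotype, robust quasi-likelihood F-test), with Benjamini-Hochberg adjustment over the 13617 genes kept and a threshold of 0.05. The acinar slope used the design genotype plus acinar share. DESeq2 1.42.0 and limma 3.58.1 (trend on log2 of RPM plus 1, which understates changes of low genes) were alternatives, beside other scalings, filters, covariates, the replicate number as a block, and each library left out. Alternatives chosen after seeing the data were Xist (high or low at 1000 counts) as a covariate, alone or with the acinar share, the interaction of genotype and acinar share, and median transcript lengths. The libraries differed in Xist, with 3 of them above 1000 counts, which cannot be even between genotypes of 4 libraries each. With Xist as a covariate the genotype median of the 77 genes was 0.152, and with Xist and the acinar share 0.103, with 0 calls in each. For the cytosolic ribosomal protein genes these medians were 0.311 and 0.114, beside 0.242 with neither covariate.

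The genes and lists were chosen with earlier results of these data known. Named genes are the 5 of smallest p per direction and comparison, the 3 highest and 3 lowest per kilobase, the Mrps18 paralogs and, of each list of helper genes, up to 2 of smallest p plus called ones. Others are named after their values were seen. Subunit and family were assigned from textbook nomenclature after values were seen. Transcript lengths came from GENCODE M21 and promoters and gene order from RefSeq tables, both on GRCm38, not mm9; genes that share reads with pseudogenes or near-identical copies, which are common among ribosomal protein genes, may have split counts. Tested on simulated counts (13506 genes fitted), the genotype test made 81 calls of which 2 were false. The acinar test (13454 genes) recovered 13% of 2-fold and 1% of 1.5-fold changes across the acinar range, with 3 false of 17 calls. Both simulations took each gene's spread from a fit with genotype alone, so variation with acinar RNA stayed in as noise. Recovery of the acinar test on the real counts was thus not measured. Over the 28 pairs of libraries, chi-square over its degrees of freedom was at least 26.1, so no library was a copy. The libraries were amplified without molecular identifiers, so reads are not independent molecules.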

Additional observations from a re-analysis of the deposited data

Results flagged for a closer look

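Within a genotype, 3 levels stood far from the others of their group among the 64 groups of 4 libraries checked, and chance flags about 1 in 20. Mrpl32 was at 2.608 CPM in KO2, above the other knockout libraries at 1.55 to 1.67. Mrpl53 was at 7.793 CPM in WT1, above the other wild-type libraries at 4.37 to 4.82. Mrps18b was at 9.999 CPM in KO1, above the other knockout libraries at 8.53 to 8.67.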

How the results depend on the processing

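At an adjusted p of 0.05, DESeq2 called 2 of the 77 genes higher and 2 lower between genotypes, where edgeR called 0. With each library left out in turn, edgeR called 0 to 8 higher and 0 to 2 lower, with all of these calls made without WT1, and the median log2 difference ran from 0.0778 (without WT2) to 0.217 (without WT1). The median moved to 0.0108 in limma-trend. For the acinar slope, the wild-type libraries alone gave 2 genes called higher, leaving out single libraries gave 0 to 3, with medians from 0.0296 (without WT1) to 0.1115 (without KO2), and limma-trend on RPM called 31 lower with a median of -0.140 and 8712 genes called in all. On RPM the slopes reversed for Mrpl15 (-0.0084), Mrpl20 (-0.0589), Mrpl50 (-0.0560), Mrpl52 (-0.0234) and Mrpl53 (-0.0408). The median slope of all genes on that scale was -0.192, so these slopes stayed above it. Mrpl4 ran from -0.1406 to 0.0296 with single libraries left out, above 0 without WT1, and reversed in the knockout libraries alone (0.0163), where Mrpl50 was at -0.000162. The cause was not tested, and limma-trend differs from edgeR in tool, added constant and scaling at once. Medians kept their sign under the other normalizations, filters and covariates run, Xist included. Deviations of same-numbered libraries correlated at 0.038, 0.21, 0.16 and 0.15. Libraries 2, 3 and 4 of the wild type correlated best with their own number and WT1 with KO3. The acinar share was not taken out before correlating. WT1 and KO3 held the most acinar RNA of their genotypes, and WT2 and KO2 the least. Whether these matches come from pairing or from acinar RNA was not tested. The labels give no pairing, and since 1 pair was under 0.1 the numbers were not taken to pair the samples. With the replicate number as a block, 0 of 77 genes were called in either comparison, the genotype median was 0.145 and the acinar median 0.108, and Mrpl1's slope reversed to 0.090. Counts of 22 to 605 per gene and library limit the precision.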
